A study of Rattus norvegicus with 17 samples.

Results

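The genes described here are 10 genes of protein folding and stress signalling in the endoplasmic reticulum, measured by RNA sequencing in rat gastrocnemius, a calf muscle. They were taken by name, as Hspa5, Hsp90b1, Hyou1, Dnajb9, Calr, Pdia3, Pdia4, Xbp1, Atf4 and Ddit3. All 10 were found, each on 1 of the 32495 named entries of the deposited count table, and all 10 passed the filter on low counts that left 11856 entries for testing. Muscle came from tumor-bearing rats given chemotherapy (n = 6 after joining 1 pair of libraries), from tumor-bearing rats without chemotherapy (n = 5) and from healthy rats (n = 5), all on the control diet. The labels give no genotype, strain, sex or age, and they name neither the tumor, its site, the chemotherapy agent, nor its dose and timing, so the comparisons stand for these unnamed models. Each sample was total RNA from whole muscle tissue. In such bulk samples, fewer cells of a type and less RNA per cell cannot be told apart.

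Secreted and membrane proteins enter the endoplasmic reticulum unfolded, and chaperones, lectins and disulfide isomerases fold them there. In muscle fibers this compartment is continuous with the sarcoplasmic reticulum, the calcium store of contraction, and fibroblasts of the muscle use it to fold collagen. When unfolded proteins build up, the sensors Ern1 (IRE1), Eif2ak3 (PERK) and Atf6 start the unfolded protein response: IRE1 splices Xbp1 mRNA so that it encodes an active transcription factor, PERK signalling favours translation of ATF4, which induces Ddit3 (CHOP), and cleaved ATF6 enters the nucleus to switch on chaperone genes. Counts per gene show neither the splicing of Xbp1 nor the amounts or cleavage of these proteins.

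ATF6 and XBP1 are known in mammals to bind the endoplasmic reticulum stress element, ERSE, in which CCAAT and CCACG are 9 bases apart, and its variant ERSE-II, in which ATTGG and CCACG are 1 base apart. The promoters that hold these letters are shown because they include both Hsp90b1 and Hyou1, which differed from healthy muscle in opposite directions. The window searched ran from 250 bases before to 50 bases after the gene start in the RefSeq promoters of the GRCr8 rat assembly, on both strands, and 9 of the 10 genes were matched (Pdia3 was not). ERSE was present in 4 of these 9 genes, against 21 of all 27457 genes with a promoter (0.0765%). ERSE-II was present in 1 of them, Hyou1, against 17 of all genes (0.0619%). Each sequence runs 5′ to 3′ on the strand of its gene, with the outer 5 bases at either end of the element in capitals, which read CGTGG and ATTGG (ERSE) or CGTGG and CCAAT (ERSE-II) where the element lies on the opposite strand.
Hspa5, chr3:38452953-38453011, plus strand, element starting 43 bases upstream: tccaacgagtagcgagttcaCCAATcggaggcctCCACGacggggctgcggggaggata
Hsp90b1, chr7:23012431-23012489, minus strand, element starting 176 bases upstream: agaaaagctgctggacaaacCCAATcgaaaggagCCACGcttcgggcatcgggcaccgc
Hsp90b1, chr7:23012327-23012385, minus strand, element starting 72 bases upstream: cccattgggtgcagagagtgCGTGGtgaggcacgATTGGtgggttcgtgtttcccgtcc
Xbp1, chr14:84604538-84604596, plus strand, element starting 65 bases upstream: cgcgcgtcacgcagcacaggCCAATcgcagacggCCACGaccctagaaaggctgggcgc
Calr, chr19:40213117-40213173, plus strand, element starting 232 bases upstream: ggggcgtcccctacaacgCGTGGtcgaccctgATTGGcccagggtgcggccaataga
Hyou1, chr8:53602674-53602724, plus strand, element starting 188 bases upstream: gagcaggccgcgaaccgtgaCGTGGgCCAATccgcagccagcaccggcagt
Hyou1, chr8:53602774-53602824, plus strand, element starting 88 bases upstream: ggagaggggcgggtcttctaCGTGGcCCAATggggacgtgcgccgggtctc

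Hsp90b1 and Hyou1 each held a pair of elements, and in Hyou1 the farther one overlapped a match to the core of the unfolded protein response element (TGACGTGG), which 187 of all genes hold (0.681%). The C/EBP-ATF element (TGATGNAAT), to which ATF4 and CHOP can bind, was found in none of the 9 promoters and in 312 of all genes (1.14%). A match describes these letters only, and their absence from the window says nothing about binding elsewhere.

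Totals on named entries ranged from 3020821 to 15719080 counts per library, and the gene of the 10 with the fewest counts, Ddit3, had 34 to 207 counts per sample. Libraries 11 and 12, both of tumor-bearing rats given chemotherapy, were the closest pair within a group. Their chi-square per degree of freedom was 2.03, where sampling noise of independent counts gives about 1, against 5.16 for the next closest pair. They were summed and counted as 1 sample, called library 11. Healthy libraries 1, 3 and 4 were the highest on the first axis of a principal component analysis of the 1000 genes with the most variance. That axis held 48.4% of the variance of these genes. It put them at 27.7, 33.0 and 42.0, against −28.1 to 19.8 in all others, and tumor library 8 came nearest, at 19.8. The names of the alignment files end in MB for healthy libraries 1 to 4 and library 11, and in MBd for library 12. They end in VM for the rest, and MBd was taken as MB. The labels do not say what the suffix stands for, and apart from healthy library 5 and library 11 it cannot be told apart from the contrast of tumor-bearing with healthy rats. Some of the numbers before the suffix recur. Healthy library 2 shares its number with tumor library 9, healthy 3 with tumor 10, and healthy 4 with healthy 5. Chemotherapy library 11 shares its number with 12, to which it was joined, and with 14. The labels do not say whether a shared number means a shared animal. Even values made up 45.9% to 59.5% of the counts from 1 to 10, with the highest shares in healthy libraries 4 and 3 (59.5% and 56.5%). An excess of even counts can come from counting both mates of a pair, so in these libraries a count may stand for less than 1 fragment. Nothing in the labels says that samples came from separate animals, so p-values measure the spread between these samples.

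Across the 10 genes, Hsp90b1 was higher and Hyou1 lower in tumor-bearing rats given chemotherapy than in healthy rats, and the other 8 did not pass the test. Levels are given in CPM, counts relative to the TMM-scaled library total. Calls rest on edgeR's quasi-likelihood test with Benjamini-Hochberg adjustment over 11856 genes, at an adjusted p under 0.05. In this comparison 7.3% of the genes tested passed as higher and 6.41% as lower, so 1 of 10 in either direction is near the background. The 10 log2 fold changes ran from −0.57 to 0.80, with 5 above and 5 below 0 and a median of −0.08, against −0.02 over all genes. At an unadjusted p under 0.05 there were 4 higher (Dnajb9, Hsp90b1, Ddit3 and Hspa5) and 3 lower (Hyou1, Calr and Xbp1), where 18.9% and 17.5% of all genes passed that threshold in the same directions. Scaled by total counts alone, without the factors for composition, 4 genes were called (Hspa5, Hsp90b1 and Dnajb9 higher, Hyou1 lower), and the median of all genes moved by 0.14. The same change turned the 865 higher and 760 lower calls over all genes into 1669 and 348.

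**Figure D1:**
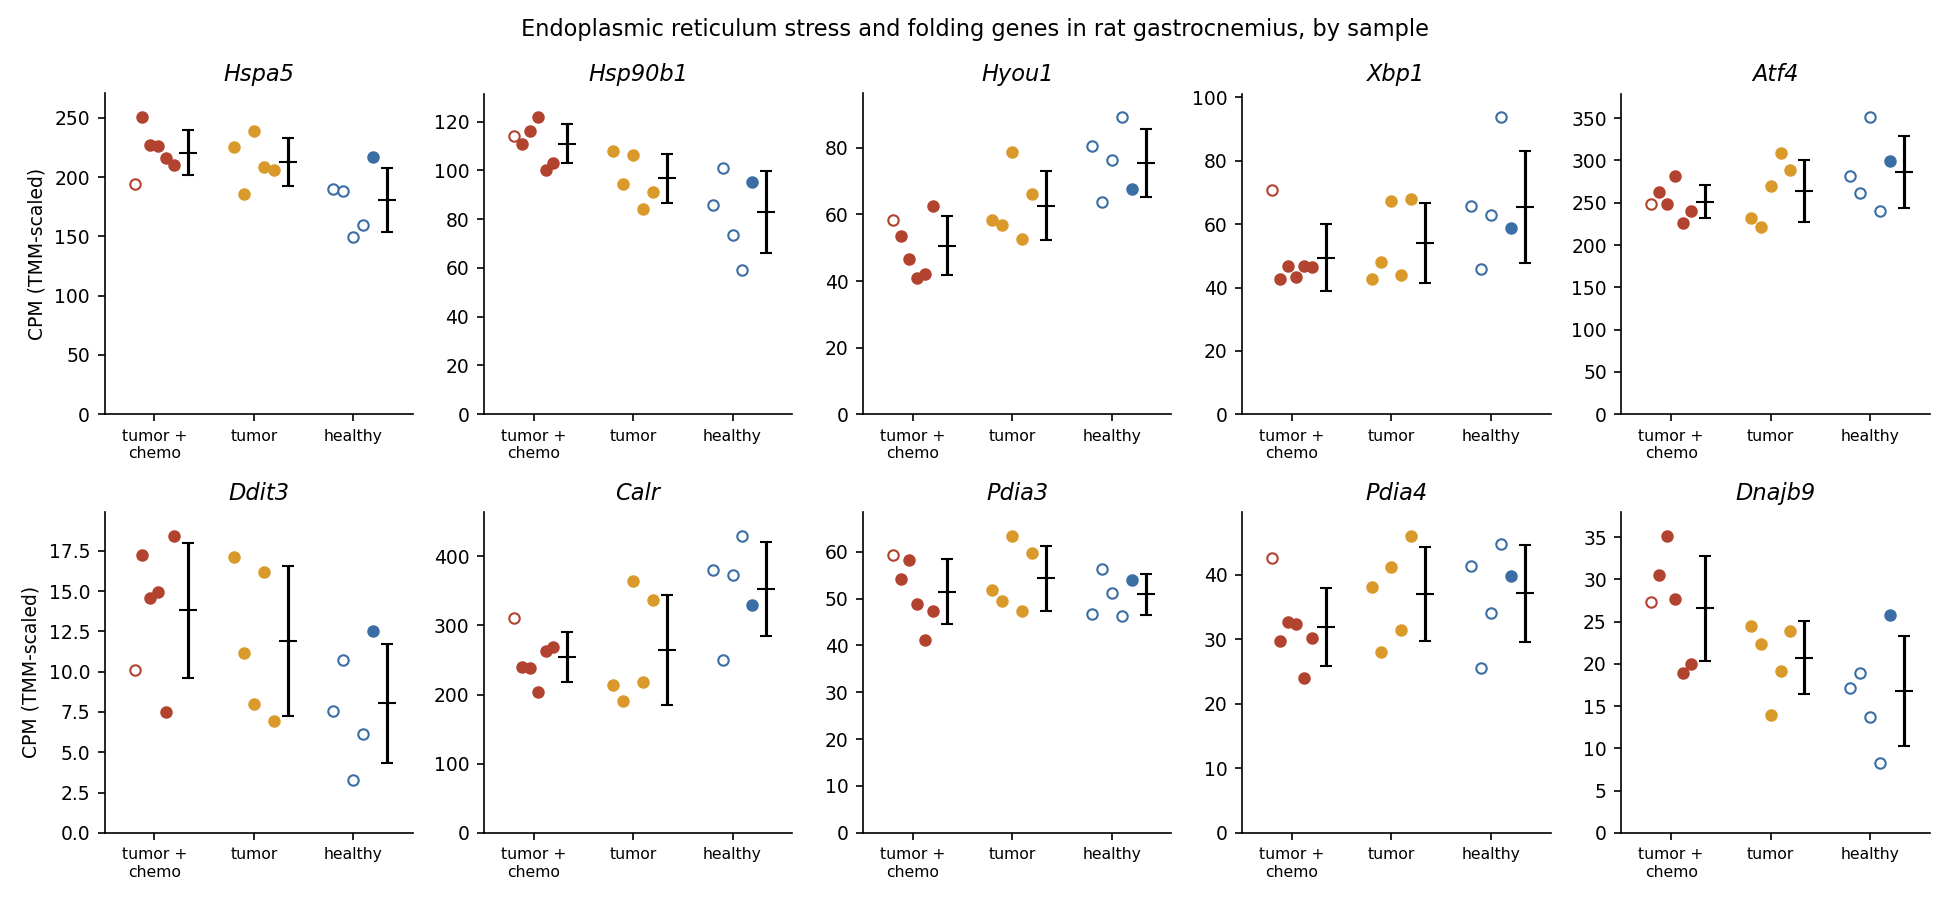
Level of each gene in CPM, scaled by TMM factors, in every sample, for tumor-bearing rats given chemotherapy (red, n = 6), tumor-bearing rats (yellow, n = 5) and healthy rats (blue, n = 5), with mean and SD in black. Open circles are libraries with the alignment suffix MB and filled circles those with VM. The 6 Hyou1 values with chemotherapy lie at 40.8 to 62.6 CPM, below all 5 healthy values.

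Hyou1 encodes a large chaperone of the HSP70 superfamily in the reticulum lumen that works as a nucleotide exchange factor for BiP. In tumor-bearing rats given chemotherapy it ranged from 40.8 to 62.6 CPM with a median of 50.04. In tumor-bearing rats libraries 6 to 10 had 58.4, 56.9, 78.9, 52.6 and 66.1 CPM, and in healthy rats libraries 1 to 5 had 80.7, 63.7, 76.3, 89.2 and 67.5 CPM. Every chemotherapy sample was below every healthy sample, as in 1.97% of all genes (the opposite order, with every chemotherapy sample above, held in 2.02%), while the tumor samples overlapped both groups. The means were 50.6 ± 8.88 CPM with chemotherapy (SD, n = 6) and 75.5 ± 10.2 CPM in healthy rats (SD, n = 5), a log2 fold change of −0.57 ± 0.15 (SE) with an edgeR adjusted p of 0.0289. In tumor-bearing rats without chemotherapy the mean was 62.6 ± 10.4 CPM, between the other two, and neither step passed the test: tumor minus healthy gave −0.27 ± 0.15 (edgeR adjusted p = 0.327) and chemotherapy minus tumor gave −0.30 ± 0.15 (edgeR adjusted p = 0.778).

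Hsp90b1 (GRP94), the HSP90 of the reticulum lumen, folds integrins, Toll-like receptors and insulin-like growth factors. Its level was 100.3 to 122 CPM in tumor-bearing rats given chemotherapy, with a median of 113 CPM. Tumor libraries 6 to 10 had 108, 94.3, 106, 84.0 and 91.2 CPM, and healthy libraries 1 to 5 had 86.0, 101, 73.7, 59.0 and 95.2 CPM. With chemotherapy 5 of 6 samples exceeded every healthy sample, and library 16 alone fell below the top healthy library. The means were 111 ± 8.15 CPM with chemotherapy (SD, n = 6) and 83.0 ± 16.9 CPM in healthy rats (SD, n = 5), a log2 fold change of 0.42 ± 0.14 (SE) with an edgeR adjusted p of 0.0455. The tumor mean of 96.7 ± 10.2 CPM lay between them, with log2 fold changes of 0.22 ± 0.14 for tumor minus healthy (edgeR adjusted p = 0.375) and 0.20 ± 0.13 for chemotherapy minus tumor (edgeR adjusted p = 0.789).

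Both calls were lost without healthy library 1, 3 or 4, or without chemotherapy library 13, 14, 15 or 16. The edgeR adjusted p of Hyou1 was 0.0721, 0.0689 and 0.0896 without healthy library 1, 3 and 4, and 0.0572, 0.0739, 0.0621 and 0.0515 without chemotherapy library 13, 14, 15 and 16. For Hsp90b1 it was 0.0871, 0.116 and 0.14 without those healthy libraries, and 0.0788, 0.0944, 0.0889 and 0.059 without those with chemotherapy. The Hsp90b1 call was also lost without tumor library 7, 9 or 10 (0.0537, 0.0509 and 0.0542) or chemotherapy library 17 (0.0561). Over all fits without 1 library, the log2 fold change was −0.64 to −0.52 for Hyou1 and 0.31 to 0.49 for Hsp90b1. Healthy libraries 1, 3 and 4 were the highest on the first axis of these same data. A fit without them kept only healthy libraries 2 and 5, so smaller differences could be foreseen, here and for the other genes. Its log2 fold changes were −0.37 for Hyou1 (edgeR adjusted p = 0.899) and 0.18 for Hsp90b1 (edgeR adjusted p = 0.904). Within the VM libraries, where healthy library 5 stands alone and is assumed to vary like the others, they were −0.46 (edgeR unadjusted p = 0.0836) and 0.21 (edgeR unadjusted p = 0.321).

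The other chaperone genes had their highest means with chemotherapy, except Calr, and none passed the test. Hspa5 encodes BiP, the main HSP70 of the reticulum and the protein that holds the stress sensors inactive. It measured 194 to 250.4 CPM with a median of 221 CPM with chemotherapy, 226, 186, 239, 208 and 206 CPM in tumor libraries 6 to 10, and 190.0, 189, 149, 159.7 and 217 CPM in healthy libraries 1 to 5. The 3 groups overlapped, and healthy libraries 3 and 4 were below every other sample. Hspa5 averaged 220.5 ± 18.9, 213 ± 20.2 and 181 ± 26.8 CPM with chemotherapy, with tumor alone and in healthy rats (SD, n = 6, 5 and 5). Chemotherapy minus healthy was 0.29 ± 0.12 on the log2 scale (edgeR adjusted p = 0.0978), tumor minus healthy was 0.24 ± 0.13 (edgeR adjusted p = 0.313) and chemotherapy minus tumor was 0.05 ± 0.12 (edgeR adjusted p = 0.924). The first of these was 0.06 in the VM libraries and 0.12 without healthy libraries 1, 3 and 4 (edgeR adjusted p = 0.941 and 0.926).

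Dnajb9 (ERdj4), a BiP cochaperone that represses IRE1 and is itself a target of spliced XBP1, had 18.9 to 35.2 CPM with a median of 27.5 CPM with chemotherapy. Tumor libraries 6 to 10 had 24.4, 22.3, 13.96, 19.2 and 23.9 CPM, and healthy libraries 1 to 5 had 17.2, 19.0, 13.7, 8.24 and 25.8 CPM. The groups overlapped, with 4 of 6 chemotherapy samples above every healthy and every tumor sample. Its log2 fold change was 0.68 ± 0.24 for chemotherapy minus healthy (edgeR adjusted p = 0.0576), 0.32 ± 0.25 for tumor minus healthy (edgeR adjusted p = 0.47) and 0.37 ± 0.24 for chemotherapy minus tumor (edgeR adjusted p = 0.779). Over all genes, edgeR called 1625 in chemotherapy minus healthy, DESeq2 2577 and limma-voom 2444. The edgeR calls numbered 3799, 2398 and 2287 without healthy library 2, healthy library 5 and tumor library 8. For Dnajb9 in this comparison DESeq2 gave an adjusted p of 0.0397 and limma-voom 0.0336. Those edgeR fits without 1 library gave it 0.0404, 0.0245 and 0.0471. Its log2 fold change was 0.04 in the VM libraries, 0.24 without healthy libraries 1, 3 and 4 and 0.21 with 1 surrogate variable (edgeR adjusted p = 0.98, 0.92 and 0.944).

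Calr encodes calreticulin, the soluble lectin chaperone that holds newly made glycoproteins and buffers calcium in the lumen. Its range was 204 to 311 CPM with a median of 251 CPM with chemotherapy. Tumor libraries 6 to 10 had 213, 191, 364, 218 and 337 CPM, and healthy libraries 1 to 5 had 381, 249.9, 373, 429.7 and 329.8 CPM. The tumor samples fell apart into 2 at 337 CPM or more and 3 at 218 CPM or less, and all 6 chemotherapy samples were below the healthy median, although healthy library 2 overlapped them. The log2 fold change was −0.47 ± 0.18 for chemotherapy minus healthy (edgeR adjusted p = 0.0693), −0.41 ± 0.19 for tumor minus healthy (edgeR adjusted p = 0.263) and −0.06 ± 0.18 for chemotherapy minus tumor (edgeR adjusted p = 0.944). In chemotherapy minus healthy 1625 of all genes were called. Leaving out healthy library 2, tumor library 8 or chemotherapy library 11 gave 3799, 2287 and 2889. The log2 fold change of Calr in this comparison was then called, with edgeR adjusted p of 0.0176, 0.0472 and 0.0428. It was −0.19 without healthy libraries 1, 3 and 4 (edgeR adjusted p = 0.924), −0.14 with the summed matrix markers as a term (edgeR adjusted p = 0.76) and 0.0724 with 1 surrogate variable (edgeR adjusted p = 0.968).

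Neither disulfide isomerase gene passed the test in any comparison. Pdia3 (ERp57), which works with calreticulin on glycoproteins, averaged 51.5 ± 7.01 CPM with chemotherapy, 54.3 ± 6.91 CPM with tumor alone and 50.9 ± 4.45 CPM in healthy rats (SD, n = 6, 5 and 5), and its samples ran from 41.1 to 63.4 CPM with all groups overlapping. Its log2 fold change for chemotherapy minus healthy was 0.02 ± 0.13 (edgeR adjusted p = 0.916), and its sign turned without healthy library 1 or 4 or chemotherapy library 11 or 14 (−0.02 in each). Pdia4 (ERp72) averaged 31.9 ± 6.05 CPM with chemotherapy, 36.9 ± 7.27 CPM with tumor alone and 37.1 ± 7.52 CPM in healthy rats (SD, n = 6, 5 and 5), with samples from 24.0 to 46.0 CPM and overlapping groups. Chemotherapy minus healthy was −0.22 ± 0.17 (edgeR adjusted p = 0.364), tumor minus healthy was −0.01 ± 0.18 (edgeR adjusted p = 0.972) and chemotherapy minus tumor was −0.20 ± 0.17 (edgeR adjusted p = 0.799).

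Among the transcription factors, Xbp1 had one sample with chemotherapy far above the rest. Library 11 stood at 70.8 CPM and the other 5 at 42.6 to 46.8 CPM, with a median over all 6 of 46.5 CPM. Tumor libraries 6 to 10 had 42.8, 47.9, 67.3, 43.8 and 68.0 CPM, and healthy libraries 1 to 5 had 65.7, 45.9, 63.0, 93.7 and 58.9 CPM. The same tumor libraries, 8 and 10, were high for Xbp1 and for Calr. Xbp1 averaged 49.4 ± 10.6 CPM with chemotherapy, 54.0 ± 12.6 CPM with tumor alone and 65.4 ± 17.6 CPM in healthy rats (SD, n = 6, 5 and 5). Chemotherapy minus healthy was −0.40 ± 0.19 (edgeR adjusted p = 0.126), tumor minus healthy −0.28 ± 0.19 (edgeR adjusted p = 0.416) and chemotherapy minus tumor −0.12 ± 0.19 (edgeR adjusted p = 0.884). In chemotherapy minus healthy 1625 of all genes were called, and 2889 and 3799 without chemotherapy library 11 and healthy library 2. In those fits without 1 library the log2 fold change of Xbp1 was called, at −0.54 and −0.51 with edgeR adjusted p of 0.0382 and 0.0399. It was −0.0797 without healthy libraries 1, 3 and 4 (edgeR adjusted p = 0.972), −0.0314 with the summed matrix markers as a term (edgeR adjusted p = 0.961), −0.16 with the suffix as a term (edgeR adjusted p = 0.805) and 0.18 with 1 surrogate variable (edgeR adjusted p = 0.896).

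Ddit3 (CHOP), a factor linked to cell death under prolonged stress, had the fewest counts of the 10 genes and the widest spread relative to its mean. It had 7.53 to 18.4 CPM with a median of 14.8 CPM with chemotherapy, 17.1, 11.2, 7.98, 16.2 and 6.92 CPM in tumor libraries 6 to 10, and 7.56, 10.7, 3.25, 6.14 and 12.5 CPM in healthy libraries 1 to 5. With chemotherapy 4 of 6 samples were above every healthy sample. The means were 13.8 ± 4.202 CPM with chemotherapy (SD, n = 6), 11.9 ± 4.65 CPM with tumor alone (SD, n = 5) and 8.04 ± 3.67 CPM in healthy rats (SD, n = 5). Its log2 fold changes were 0.80 ± 0.32 for chemotherapy minus healthy (edgeR adjusted p = 0.0863), 0.59 ± 0.33 for tumor minus healthy (edgeR adjusted p = 0.337) and 0.21 ± 0.31 for chemotherapy minus tumor (edgeR adjusted p = 0.876). Without healthy library 5 the first was called, at 1.035 with an edgeR adjusted p of 0.0414, when 2398 of all genes were called. It was 0.21 in the VM libraries, 0.22 without healthy libraries 1, 3 and 4, 0.0819 with 1 surrogate variable and 0.41 with either the suffix or the matrix markers as a term, none of them called.

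Atf4, the factor upstream of Ddit3, had 226 to 282 CPM with a median of 249 CPM with chemotherapy, 232, 221, 270.3, 308 and 288 CPM in tumor libraries 6 to 10, and 281.5, 261, 351, 239.8 and 299 CPM in healthy libraries 1 to 5. All 3 groups overlapped. Its log2 fold change was −0.19 ± 0.13 for chemotherapy minus healthy (edgeR adjusted p = 0.283), −0.12 ± 0.13 for tumor minus healthy (edgeR adjusted p = 0.622) and −0.07 ± 0.13 for chemotherapy minus tumor (edgeR adjusted p = 0.899). Atf4 and Ddit3 thus had mean differences of opposite sign against healthy rats, and neither passed the test.

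**Figure D2:**
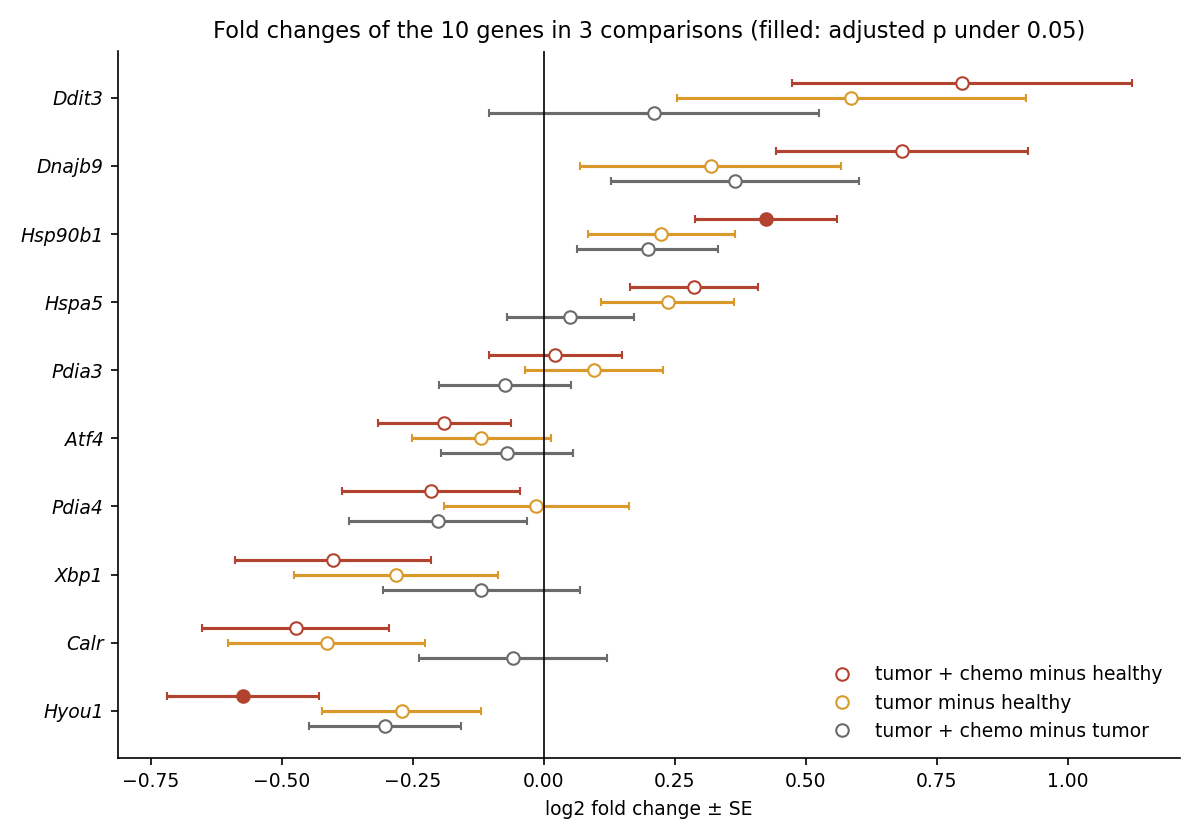
Log2 fold change with SE (horizontal axis) of each gene for chemotherapy minus healthy (red), tumor minus healthy (yellow) and chemotherapy minus tumor (gray), from the edgeR model over 16 samples, with filled points at an adjusted p under 0.05. The only filled points are Hsp90b1 at 0.42 and Hyou1 at −0.57, both for chemotherapy minus healthy.

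In tumor-bearing rats without chemotherapy against healthy rats, 0 of the 10 genes passed the test, and 0% of all genes were called higher and 0% lower by edgeR. The smallest edgeR adjusted p was 0.263, for Calr, which was also the only one of the 10 with an unadjusted p under 0.05 (0.039). Over all genes, 1053 had an unadjusted p under 0.05 on the higher side and 1081 on the lower side, DESeq2 called 40 genes and limma-voom 0, and neither called any of the 10. Chemotherapy against tumor alone also gave 0 of 10, with 0% of all genes called higher and 0% lower by edgeR, and no gene of the 10 had an unadjusted p under 0.05. In that comparison 233 and 452 of all genes had an unadjusted p under 0.05 on the higher and lower side, DESeq2 called 9 and limma-voom 0, none of them among the 10. The comparisons share samples, so their values for a gene are not independent. For 9 of the 10 genes the tumor mean lay between the means of the other two groups, and Pdia3, at 54.3 CPM above both, was the exception. How often this order held over all genes was not counted, so it is not read as a trait of the 10.

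Ratios of genes within a sample do not depend on library scaling, and those given here were chosen after the levels were seen, so they carry no test. Hsp90b1 over Hyou1 was 1.96, 2.07, 2.49, 2.99, 2.38 and 1.64 in chemotherapy libraries 11 and 13 to 17, 1.85, 1.66, 1.35, 1.6 and 1.38 in tumor libraries 6 to 10, and 1.07, 1.59, 0.966, 0.662 and 1.41 in healthy libraries 1 to 5. Every chemotherapy sample had a higher ratio than every healthy sample, and healthy library 2 came nearest. Hspa5 over Calr averaged 0.889 ± 0.18 with chemotherapy, 0.851 ± 0.202 with tumor alone and 0.536 ± 0.165 in healthy rats (SD, n = 6, 5 and 5). All groups overlapped in this second ratio, with 0.6249 to 1.11 with chemotherapy, 0.611 to 1.06 with tumor alone and 0.372 to 0.755 in healthy rats.

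**Figure D3:**
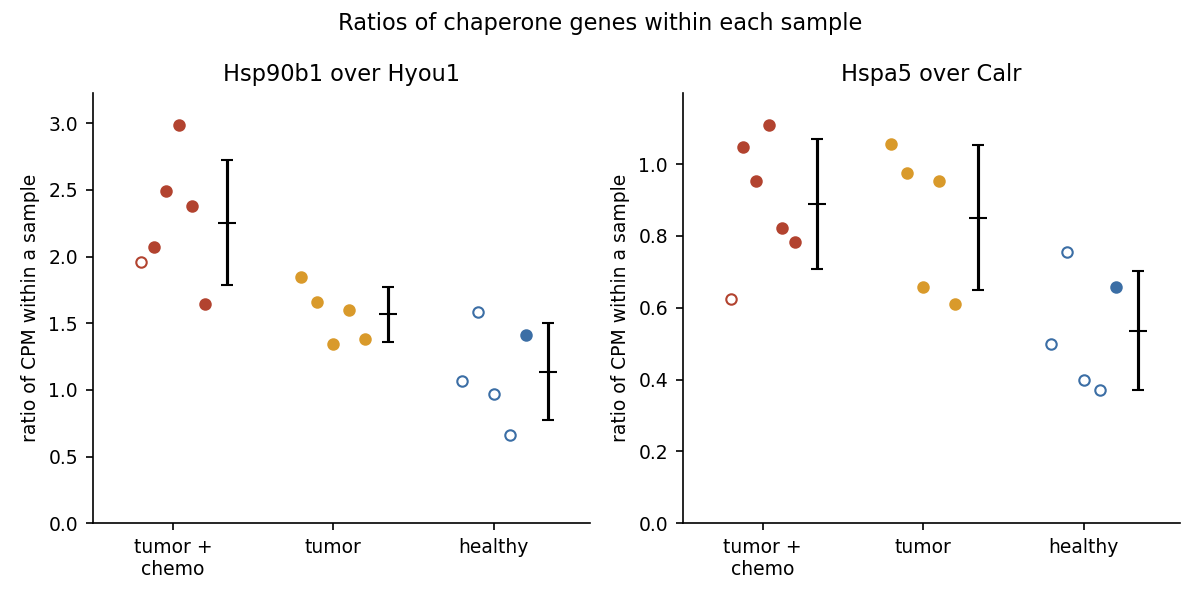
Ratio of Hsp90b1 to Hyou1 and of Hspa5 to Calr within each sample (vertical axis, from CPM), for tumor-bearing rats given chemotherapy, tumor-bearing rats and healthy rats, with mean and SD in black, open circles for suffix MB and filled circles for VM. Hsp90b1 over Hyou1 runs from 1.64 to 2.99 with chemotherapy and from 0.662 to 1.59 in healthy rats.

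The 5 genes with ERSE or ERSE-II in the promoter windows printed above had fold changes of both signs. Against healthy rats, Hspa5 and Hsp90b1 had log2 fold changes of 0.29 and 0.42 with chemotherapy, while Xbp1, Calr and Hyou1 had −0.40, −0.47 and −0.57. Across all 16 samples, Hsp90b1 followed Hspa5 (Pearson r = 0.78, permutation p = 0.00076, adjusted 0.00684 over 9 relations with Hspa5; Spearman rho = 0.73, permutation p = 0.00212, adjusted 0.0191). Without healthy libraries 3 and 4, the farthest from the median of Hspa5, r was 0.51, and it was 0.65 in the 11 VM libraries. With group means removed it was 0.64. Ddit3 and Dnajb9 had r of 0.71 and 0.65 with Hspa5 over 16 samples (permutation p = 0.00207 and 0.00757, adjusted 0.00932 and 0.0227; rho 0.59 and 0.59, permutation p = 0.0179 and 0.0183, adjusted 0.0549 each). Those 2 relations rested on libraries 3 and 4, without which r was 0.36 and 0.27, and in the VM libraries r was 0.20 and 0.18. With group means removed and libraries 3 and 4 kept, r was 0.57 and 0.45. Hyou1 and Xbp1 ran the other way, with r of −0.54 and −0.55 (permutation p = 0.0306 and 0.0286, adjusted 0.0551 each; rho −0.45 and −0.50, permutation p = 0.0814 and 0.0509). Without libraries 3 and 4 these were −0.26 and −0.27, and in the VM libraries −0.02 and −0.07. With group means removed they were −0.15 and −0.35. The other 4 relations had r from −0.47 to 0.26, none with an adjusted p under 0.05. The permutations shuffled all 16 samples, so their p-values do not separate differences between groups from variation within them.

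Markers of fibroblasts and matrix moved with several of these genes. Of a list of 10 such markers 8 were tested, none of them at 0, and Col1a2 and Col6a3 were not analysed here. In chemotherapy minus healthy 5 of the 8 were called lower and none higher, with a median log2 fold change of −0.86. Their summed level was 2714 to 11590.0 CPM with chemotherapy, 3276 to 13920.0 CPM with tumor alone and 5505 to 15930.0 CPM in healthy rats. Library 11, tumor libraries 8 and 10 and healthy libraries 1 and 4 were the highest samples of their groups, and they were also the highest of their groups for Xbp1, or, for healthy library 1, second to library 4.

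Over 16 samples, the log2 level of Xbp1 had a Pearson r of 0.86 with the log2 sum of these markers (permutation p = 2e-05, adjusted 0.0002 over 10 relations; rho = 0.75, permutation p = 0.0013, adjusted 0.00433). For Hyou1 r was 0.81 (permutation p = 0.00012, adjusted 0.0006; rho = 0.79, permutation p = 0.00036, adjusted 0.0036), for Calr 0.79 (permutation p = 0.00063, adjusted 0.0021; rho = 0.76, permutation p = 0.00108, adjusted 0.00433) and for Pdia4 0.68 (permutation p = 0.00443, adjusted 0.0111; rho = 0.64, permutation p = 0.00856, adjusted 0.0183). Without healthy libraries 1 and 4, the farthest from the median of the sum, r was 0.83, 0.72, 0.70 and 0.59 for Xbp1, Hyou1, Calr and Pdia4. In the 11 VM libraries r was 0.83, 0.74, 0.66 and 0.66, and with group means removed it was 0.83, 0.73, 0.77 and 0.64. Ddit3 ran the other way (r = −0.62, permutation p = 0.00992, adjusted 0.0198; rho = −0.64, permutation p = 0.00915, adjusted 0.0183), with −0.55 both without those libraries and within VM. Hsp90b1 had r = −0.53 (permutation p = 0.0295, adjusted 0.0491; rho = −0.51, permutation p = 0.0476, adjusted 0.0794), with −0.31 without those libraries and −0.38 within VM, so that this relation rested on libraries 1 and 4. For Dnajb9 r was −0.51 (permutation p = 0.0397, adjusted 0.0567). Pdia3 had r = 0.38 over 16 samples (permutation p = 0.148, adjusted 0.165), and 0.75 and 0.76 without those libraries and within VM. Hspa5 and Atf4 had r of −0.45 and 0.28 (permutation p = 0.0768 and 0.287, adjusted 0.096 and 0.287). With group means removed, r was −0.49 for Ddit3, −0.27 for Hsp90b1, −0.29 for Dnajb9 and 0.45 for Pdia3. It was −0.22 for Hspa5 and 0.08 for Atf4. With the log2 sum as a term in the model, chosen after the data were seen, chemotherapy minus healthy was −0.35 for Hyou1 (edgeR unadjusted p = 0.0205, adjusted 0.377) and 0.36 for Hsp90b1 (edgeR unadjusted p = 0.0226, adjusted 0.379), and 0 of all genes were called.

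**Figure D4:**
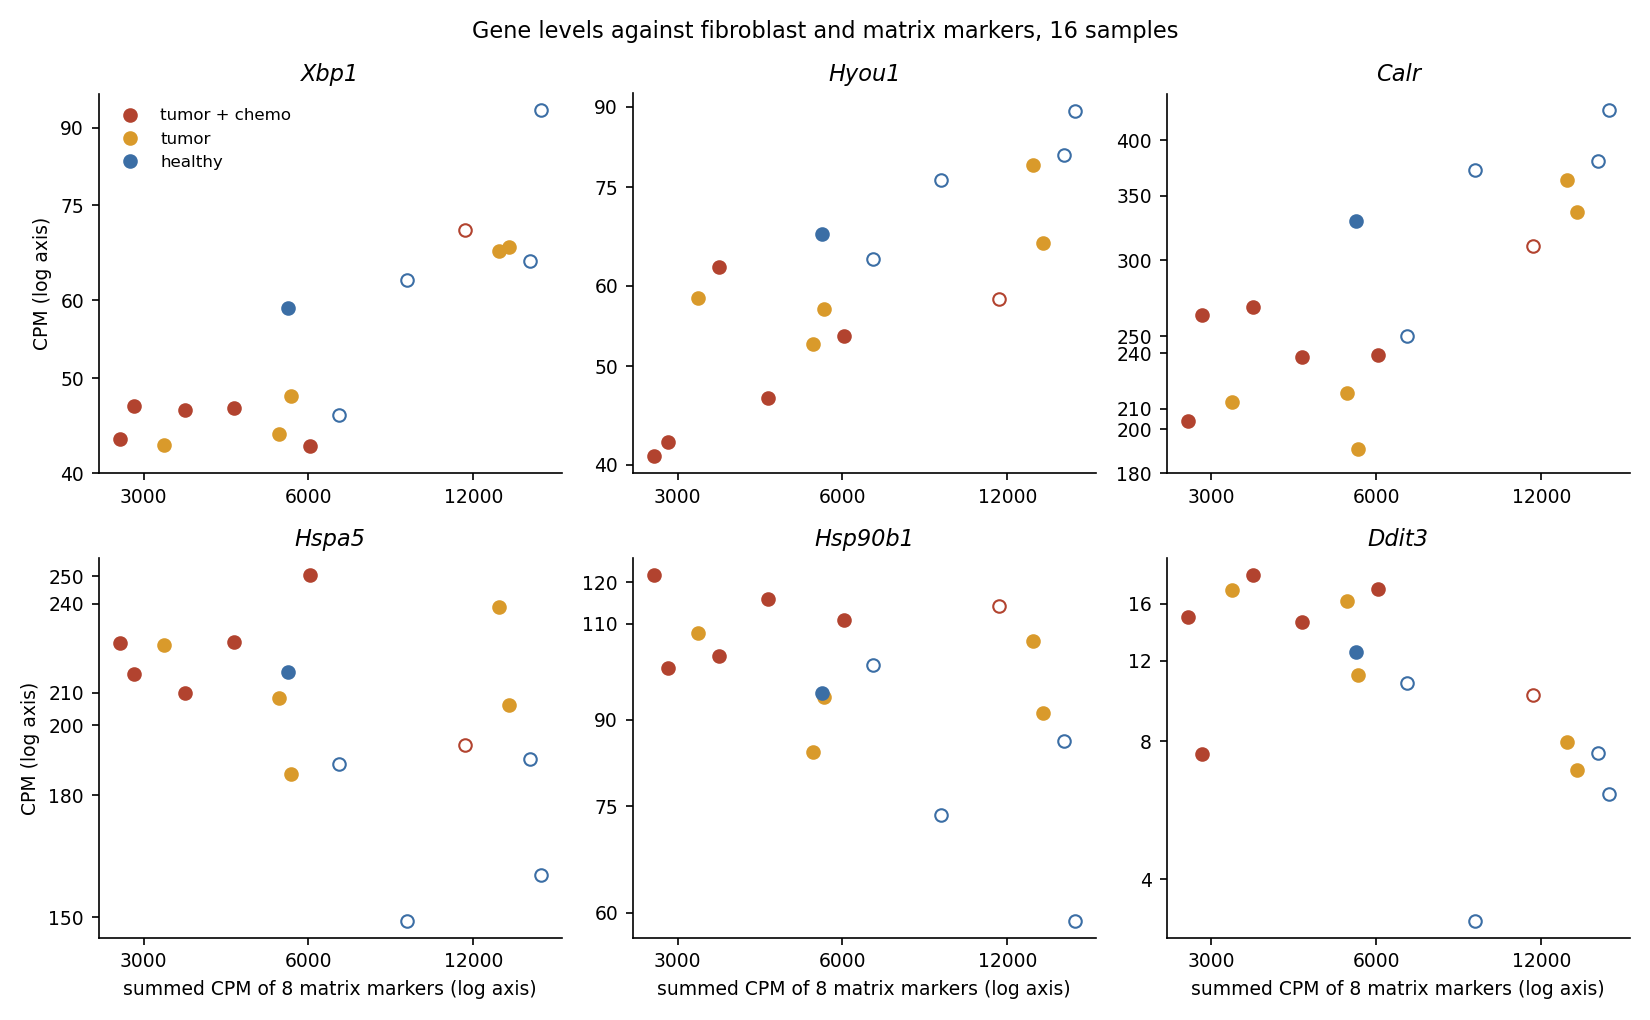
CPM of 6 of the genes (vertical axis, log scale) against the summed CPM of 8 fibroblast and matrix markers (horizontal axis, log scale) in 16 samples, colored by group, with open circles for suffix MB and filled circles for VM. Xbp1, Hyou1 and Calr are high where the markers are high (r = 0.86, 0.81 and 0.79), within groups as well as between them, and Ddit3 has r = −0.62.

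Markers of other cell types are given as levels and calls only, and their correlation with the 10 genes was not computed. Of the macrophage markers 7 of 7 were tested and 0 called in chemotherapy minus healthy, with sums of 173 to 344 CPM with chemotherapy, 144 to 280.5 CPM with tumor alone and 182 to 384 CPM in healthy rats. B and plasma cells, which make much endoplasmic reticulum, had 0 of 7 markers above the count filter, and T cells 0 of 4. Muscle fiber markers summed to 202400.0 to 237400.0 CPM with chemotherapy, 200300.0 to 246800.0 CPM with tumor alone and 221100.0 to 317000.0 CPM in healthy rats, with 7 of 10 tested and Myh1, Myh2 and Ttn not analysed here, and in chemotherapy minus healthy 2 of the 7 were called lower and 0 higher. Endothelial markers summed to 139.8 to 201.1 CPM with chemotherapy, 173 to 251.5 CPM with tumor alone and 201.4 to 233 CPM in healthy rats, so that every chemotherapy sample was below every healthy one. Of 5 tested, 1 was called higher and 1 lower in chemotherapy minus healthy, with a median log2 fold change of −0.44. The same comparison gave adipocyte, red blood cell and Schwann cell markers 0 calls among 4, 5 and 3 tested. Their median log2 fold changes were 1.89, −0.88 and 0.29, and the groups overlapped in each sum. Adipocyte markers summed to 38.1 to 358.6 CPM with chemotherapy and 21.72 to 72.81 CPM in healthy rats. For red blood cell markers the sums were 124.0 to 916.9 CPM and 440.4 to 1379.0 CPM. For Schwann cell markers they were 38.86 to 237.0 CPM and 37.2 to 133.4 CPM. The part of these cell types in the values of the 10 genes was not tested.

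The wider pathway was read from 7 lists holding 113 tested genes. In chemotherapy minus healthy 11 were called higher and 5 lower, against 7.3% higher and 6.41% lower over all genes. The calls of each list below are to be read beside these same shares. None of the 113 was called in the other 2 comparisons by edgeR, where 20 (tumor minus healthy) and 5 (chemotherapy minus tumor) had an unadjusted p under 0.05, and DESeq2 and limma-voom called none of them in either. The median log2 fold change of the 113 genes in chemotherapy minus healthy was 0.00, with 56 above and 57 below 0, so the calls came from both tails. The lists were chosen with earlier results of these data known. The 16 calls fell to 0 without healthy library 1, 3 or 4 or chemotherapy library 13, 14 or 15, and to 6 without library 16. Over all genes, calls fell likewise to 0, and to 529 without library 16. Without healthy library 2, chemotherapy library 11 and healthy library 5 the listed calls numbered 36 of 113, 28 of 112 and 23 of 113. Over all genes, those fits called 3799 of 11995, 2889 of 11828 and 2398 of 11988. With total counts alone as the scale 19 listed genes were higher and 1 lower, against 1669 and 348 over all genes.

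Of 10 stress sensors and transducers, Eif2s1 rose and none fell, while 8 had a log2 fold change below 0 and, at an unadjusted p under 0.05, 1 was higher and 3 were lower. Eif2s1, the subunit of the initiation factor that PERK phosphorylates, averaged 48.8 ± 6.86 CPM with chemotherapy and 26.2 ± 9.03 CPM in healthy rats (SD, n = 6 and 5), a log2 fold change of 0.91 with an edgeR adjusted p of 0.0261, and every chemotherapy sample was above every healthy one. None of the sensors passed the test. Ern1 was at 36.0 ± 4.02 CPM with chemotherapy and 46.5 ± 4.92 CPM in healthy rats (edgeR adjusted p = 0.0872). Every chemotherapy sample was below every healthy one for Ern1. Over all genes, 2.02% lay wholly above the healthy samples, as Eif2s1 did, and 1.97% wholly below, as Ern1 did.

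Of 18 other chaperones and cochaperones of the reticulum, 2 rose and 2 fell. Dnajc3 (p58IPK), an inhibitor of PERK and BiP cochaperone, rose by 0.61 on the log2 scale, to 40.6 ± 5.79 CPM with chemotherapy against 26.7 ± 8.02 CPM in healthy rats (SD, n = 6 and 5; edgeR adjusted p = 0.045). Sec62, a translocon partner that also serves as a receptor for clearing excess reticulum after stress, rose by 1.16 (edgeR adjusted p = 0.0379). Ppib, the cyclophilin of the lumen that helps collagen fold, fell to 43.9 ± 9.34 CPM with chemotherapy against 70.8 ± 24.3 CPM in healthy rats (SD, n = 6 and 5; log2 fold change −0.69, edgeR adjusted p = 0.0488). Creld1, a membrane protein of the reticulum, had a log2 fold change of −0.39 and no overlap between the groups (edgeR adjusted p = 0.0383). In 1.97% of all genes every chemotherapy sample was below every healthy one.

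Among 16 other disulfide isomerases and oxidases 2 rose and 0 fell, where 7.3% of all genes were called higher and 6.41% lower. Ero1b, an oxidase that recharges disulfide isomerases, was at 5.15 ± 2.10 CPM with chemotherapy and 2.19 ± 0.874 CPM in healthy rats (SD, n = 6 and 5; log2 fold change 1.21, edgeR adjusted p = 0.0312), and Tmx3, a membrane-bound isomerase, rose by 0.73 (edgeR adjusted p = 0.0279). Of 19 genes of degradation from the reticulum, the lectin gene Erlec1 rose by 1.31 (edgeR adjusted p = 0.0373) and Nploc4, a cofactor of the p97 ATPase that pulls proteins out of the membrane, had −0.64 (edgeR adjusted p = 0.0271). Of 13 translocon and signal peptidase genes, the signal peptidase subunits Spcs3 and Sec11c rose by 0.75 and 0.85 (edgeR adjusted p = 0.0301 and 0.0308), and Ssr2 of the translocon-associated complex had −0.57 (edgeR adjusted p = 0.0456).

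None of 18 targets of ATF4 and CHOP passed the edgeR test in chemotherapy minus healthy, and 2 had an unadjusted p under 0.05. They were Cebpg, a partner of ATF4 on its target genes, at 0.81 (edgeR adjusted p = 0.0523) and Slc3a2, an amino acid transporter chain, at −0.33 (edgeR adjusted p = 0.0971). DESeq2 called Cebpg (adjusted p = 0.0284), as did limma-voom (adjusted p = 0.0261). They called 2577 and 2444 of all genes, where edgeR called 1625. With 1 surrogate variable, without healthy libraries 1, 3 and 4, and with the summed matrix markers as a term, the Cebpg value was 0.013, 0.26 and 0.35, with edgeR adjusted p of 0.997, 0.917 and 0.541. The median over the 18 was 0.00, and Trib3, Nupr1, Fgf21 and Gdf15 were below the count filter.

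Chaperones of the cytosol and mitochondria, 19 tested, gave 3 higher and 1 lower. Hspd1, the HSP60 of mitochondria, had 207 ± 46.8 CPM with chemotherapy and 99.01 ± 46.0 CPM in healthy rats (SD, n = 6 and 5; log2 fold change 1.07, edgeR adjusted p = 0.0303). Dnaja1 and Hsp90aa1, a cochaperone and an HSP90 of the cytosol, rose by 1.06 and 0.88 (edgeR adjusted p = 0.0334 and 0.0452). Bag3, which links chaperones to autophagy in muscle, had −0.57 (edgeR adjusted p = 0.0447).

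**Figure D5:**
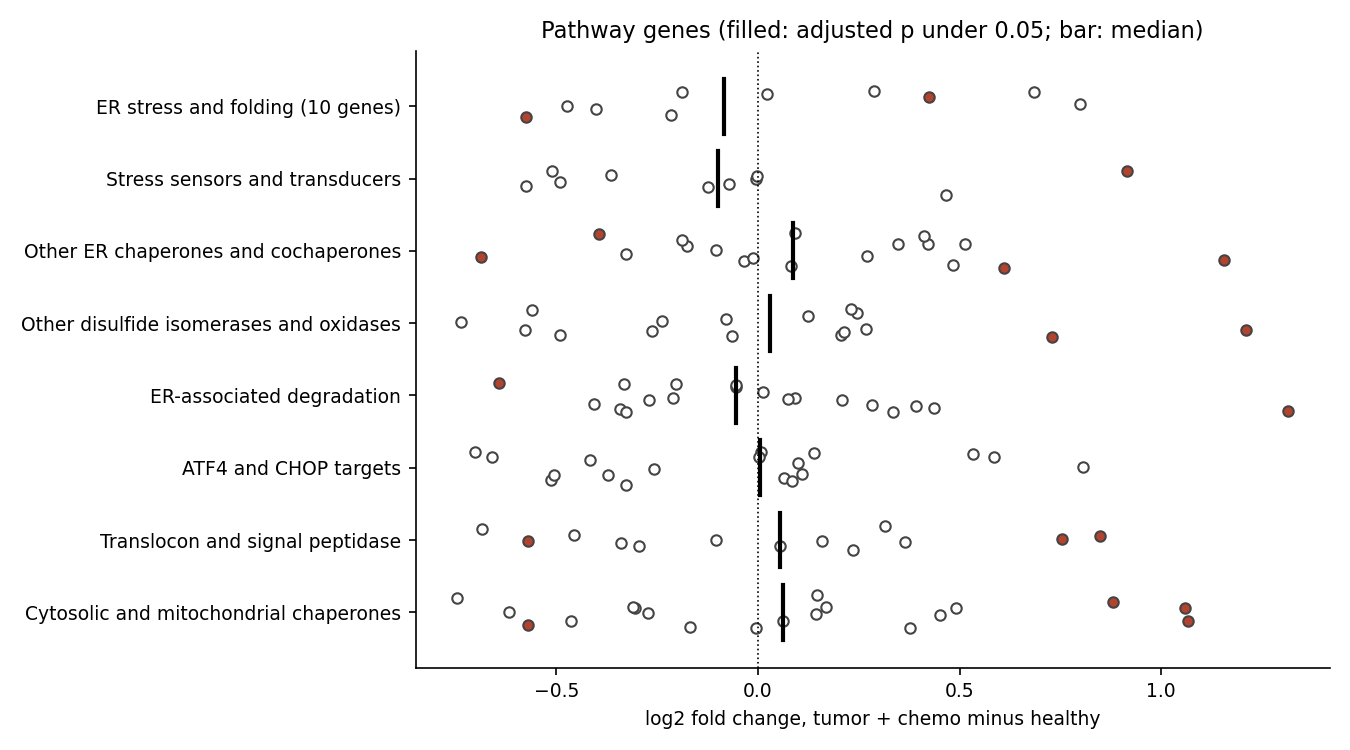
Log2 fold change, chemotherapy minus healthy (horizontal axis), of every tested gene in the set of 10 and in 7 pathway lists (rows), with filled circles at an edgeR adjusted p under 0.05 and a black bar at each median. The medians lie between −0.10 and 0.09, and filled circles stand on both sides of 0 over the lists as a whole.

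The genes whose log2 CPM over 16 samples was most like the mean standardized level of the 10 genes were Alg5 (Pearson r = 0.84), Pam (0.83), Pls3 (0.80), Tram1 (0.79) and Acaa2 (0.78), from 8856 candidates with a mean of at least 5 CPM. Alg5 makes a glycan precursor in the reticulum membrane, Tram1 sits beside the translocon and Pam amidates secreted peptides. The lowest r were those of Sfxn5 (−0.79), Prkag3 (−0.78), Rhbdf2 (−0.71), Carns1 (−0.69) and Alg9 (−0.69). Genes of the Alg name thus stood at both ends, so these picks do not show that genes of the reticulum as a whole followed the 10. The mean level pools genes whose correlations with Hspa5 had both signs, so it does not stand for a shared program. The groups overlapped in this mean level, with −0.779 to 0.434 with chemotherapy, −0.559 to 0.592 with tumor alone and −0.285 to 0.491 in healthy rats.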

How the data were processed

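The deposited table held raw counts per gene for 17 libraries, not normalized, and each library was mapped by its name to a sample title. Per the labels' protocols, total RNA of gastrocnemius went into stranded libraries after removal of ribosomal RNA. Per the submitters' processing notes, the tools were TopHat2 2.0.10 with Bowtie2, Trim Galore 0.4.1, FastQC 0.11.4 and CASAVA 1.9. Which genome build, annotation and counter were used is not given in the sources. Entries with no gene name (388 of 32883, 0.102% to 0.373% of a library's counts) were left out.

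Counts were filtered (filterByExpr, minimum count 10), scaled by TMM factors and fitted with edgeR 4.0.16 (robust quasi-likelihood, R 4.3.3) in 1 model with a mean per group over 16 samples and 13 residual degrees of freedom, without covariates. Libraries 11 and 12 were summed. SE is the absolute log2 fold change over the square root of F. Log2 CPM for correlations used a prior count of 2, and permutation tests were two-sided with 100000 resamples. Alternatives used DESeq2 1.42.0, limma 3.58.1 and sva 3.50.0, other scaling and filters, a term for the name suffix, and left-out libraries. The steps were tested on simulated data. Among the 10 genes, counting noise at this library depth, 3020821 to 15719080 counts, weighs most on Ddit3, which had the fewest counts. The part of depth in its spread was not tested.

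The members, lists and tests were chosen with earlier results of these data known. Named beyond the 10 genes are every called member of a pathway list, the 2 with the smallest p of each list in chemotherapy minus healthy, and the 5 genes most and least like the members' mean level. Levels are not compared between genes per length. Promoters came from RefSeq (GRCr8). Figures used Python 3.11.15 and matplotlib 3.10.9.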

Additional observations from a re-analysis of the deposited data

Results flagged for a closer look

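Xbp1 in chemotherapy library 11 was at 70.8 CPM, far from the other 5 chemotherapy samples at 42.6 to 46.8 CPM, and the gap to the nearest of them was 0.853 of the group's range. It was the only such sample in 30 sets of 1 gene in 1 group, where chance alone gives about 1 in 20. In the same library the fibroblast and matrix markers summed to 11590.0 CPM, against 2714 to 6029 CPM in the other chemotherapy samples, and it is the only chemotherapy sample with the MB suffix. The part of either in the Xbp1 value was not tested.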

How the results depend on the processing

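No paired analysis was run, because the library numbers in the sample titles are unique to each sample and do not say which samples share an animal. Numbers in the alignment names that recur between healthy libraries 2 and 3 and tumor libraries 9 and 10 carry different suffixes and no stated meaning, and were not used as pairs. Those that recur within a group, in healthy libraries 4 and 5 and chemotherapy libraries 11 and 14, were treated as separate samples. Library 12, with the same number as 11, was summed into it. In chemotherapy minus healthy, 2 members, 1625 of all genes and 16 listed genes were called. All 3 counts were 0 with 1 surrogate variable, with the name suffix as a term, in VM libraries only, without healthy libraries 1, 3 and 4, and with the summed matrix markers as a term. Without a filter they were 1, 884 and 7, and in a fit of only the 2 groups 1 member was called, Hyou1 in both cases. Total counts alone gave 4 members. The fit without healthy libraries 1, 3 and 4 kept only healthy libraries 2 and 5. DESeq2 called 2577 genes and limma-voom 2444. Leaving out single libraries gave 0 to 5 members, 0 to 3799 genes and 0 to 36 listed genes. In tumor minus healthy, 0 genes became 40 with DESeq2 and 3 with the matrix term, and left-out libraries gave 0 to 504 genes and 0 to 3 listed genes. In chemotherapy minus tumor, 0 became 9 with DESeq2 and 7 with 1 surrogate variable, and left-out libraries gave 0 to 3. Members called stayed at 0 in both of these comparisons under every alternative.

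Signs turned as follows, and the cause was not tested. In chemotherapy minus healthy, 1 surrogate variable gave 0.18 for Xbp1, 0.0724 for Calr, 0.14 for Pdia4 and 0.0141 for Ppib, the matrix term gave 0.0173 for Pdia4, and Pdia3 was −0.11 in VM libraries and −0.0948 without healthy libraries 1, 3 and 4. In tumor minus healthy, VM libraries gave −0.0228 for Hspa5, −0.0808 for Ddit3 and −0.31 for Dnajb9. Without healthy libraries 1, 3 and 4 it was −0.024 for Hsp90b1, 0.0324 for Xbp1, −0.0251 for Pdia3, 0.15 for Pdia4 and −0.13 for Dnajb9. Xbp1 was 0.0846 with 1 surrogate variable and 0.0577 with the suffix term, and Pdia4 was 0.21 and 0.15 with these, 0.10 with total counts and 0.0795 with the matrix term. In chemotherapy minus tumor, 1 surrogate variable gave −0.0022 for Hspa5, 0.10 for Xbp1 and 0.17 for Calr, and the matrix term gave 0.11 for Xbp1 and 0.17 for Calr. Left-out libraries gave −0.0246 to 0.0791 for Pdia3 in chemotherapy minus healthy, −0.12 to 0.0647 for Pdia4 in tumor minus healthy and −0.16 to 0.0779 for Calr in chemotherapy minus tumor.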
